A study of Mus musculus with 6 samples.

Results

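The 34 genes described here encode enzymes, transporters and import factors of fatty acid oxidation in mitochondria and peroxisomes. They were chosen by symbol, and all 34 had a gene ID among the 21769 IDs common to the 6 libraries. By known location, 16 products are mitochondrial, 14 peroxisomal and 3 of both organelles, and 1 is cytosolic. Messenger RNA was sequenced from 3T3-L1, a mouse fibroblast line that can be turned into fat cells, with the genotype given as WT in every library. Culture was in 10% serum, then insulin was used to induce differentiation, and medium holding 0.1 µM insulin was renewed up to day 8. Control cells (3 libraries) were compared with cells under chronic intermittent hypoxia, CIH (3 libraries), which means repeated spells of low oxygen. Neither oxygen levels nor cycle times were given in the sources used here. No label says that the libraries came from separate cultures. A p-value here therefore weighs the difference between groups against the spread of libraries within a group, and that spread may be technical alone.

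Fatty acids are activated to acyl-CoA and shortened by β-oxidation, a cycle of dehydrogenation, hydration, a second dehydrogenation and thiolytic cleavage that releases acetyl-CoA. Mitochondria run the cycle on fatty acids brought in by the carnitine shuttle and pass the electrons through electron transfer flavoprotein to the respiratory chain. Peroxisomes shorten very long, branched and other unusual chains, and their first step is an oxidase that hands electrons to oxygen and makes hydrogen peroxide. Fat cells raise both pathways as they differentiate, under the nuclear receptor PPARγ.

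Levels are FPKM, which scales fragments to a length and to the library. In the gene tables the length that gave whole fragments was that of all annotated exons of a gene together. Levels of different genes in 1 library therefore depend on that length, and a ratio between genes can differ with the kind of table. Replicates 1 and 2 of both groups came as gene tables. The depths of control 1, control 2, CIH 1 and CIH 2 correspond to 25700000, 28000000, 26200000 and 27400000 fragments. Control 3 and CIH 3 came as transcript tables of unknown depth, so their levels are read against each other and not against the gene tables. The filter on low values, the interaction test and 2 alternative fits take in all 6 libraries. Changes are differences of log2(FPKM + 1), which understate the change of low genes, and folds are on that scale. In replicates 1 and 2 (n = 2 libraries a group), limma with Benjamini-Hochberg adjustment over 10976 genes of at least 1 FPKM on average called 39.1% of them at an adjusted p under 0.05, 18.2% higher and 20.9% lower in CIH. Acot1 and Ehhadh lay below that level, leaving 32 members tested. A tested member was backed by 266 to 25477 fragments in a gene table, and the counting error of its level was at most 6.13%. The replicate 3 pair has 1 library a group, so its differences carry no error and no test of their own.

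**Figure D1:**
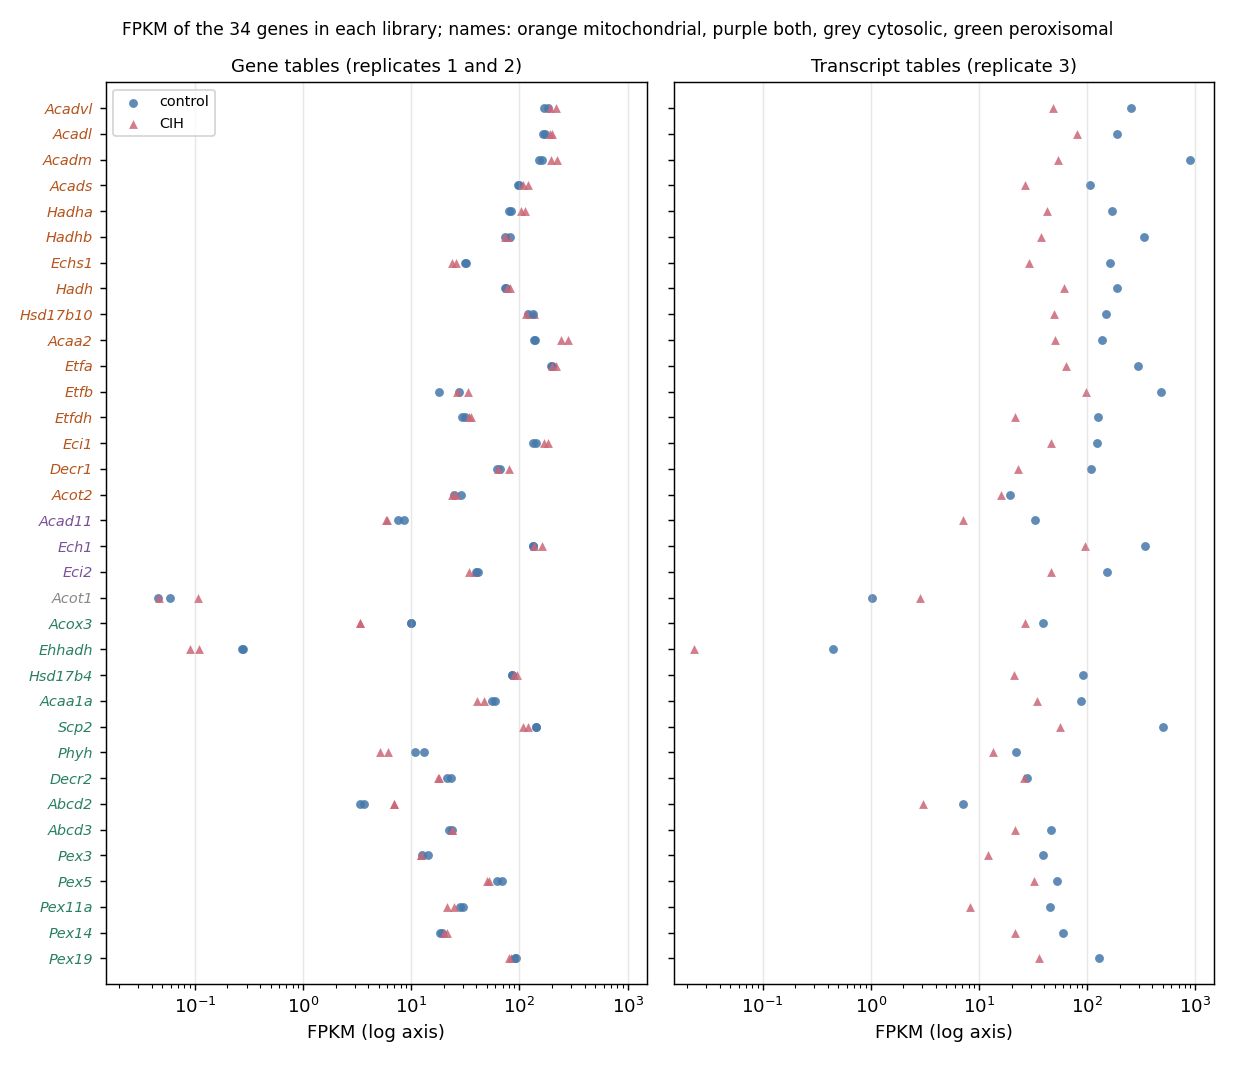
Level of each of the 34 members in each library, as FPKM on a log axis, with 1 point per library (control and CIH, replicates 1 to 3) and members grouped by organelle. In CIH 3 every tested member lies below control 3.

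In replicates 1 and 2, the median change was above 0 over mitochondrial members and below 0 over peroxisomal members. Of 16 mitochondrial members, 4 rose (Acaa2, Acadm, Hadha and Eci1), 1 fell (Echs1) and 11 were not called. Of 13 tested peroxisomal members, 7 fell (Acox3, Phyh, Acaa1a, Pex5, Scp2, Pex11a and Decr2), 1 rose (Abcd2) and 5 were not called. The median log2 change was 0.21 over the mitochondrial members and -0.31 over the peroxisomal ones, beside -0.01 over all genes tested. The 4 mitochondrial members that rose are 25% of 16, near the 18.2% of all genes called higher. The 7 peroxisomal members that fell are 53.8% of 13, beside 20.9% of all genes called lower. Both CIH libraries lay above both controls in 9 of the 16 mitochondrial members (56.3%, beside 35.1% of all genes). Both lay below in 9 of the 13 peroxisomal members (69.2%, beside 38.9% of all genes). With the replicate number as a block, limma called 2 mitochondrial members higher and 1 lower, and 1 peroxisomal member higher and 2 lower. With 1 library left out at a time the calls ranged from 1 to 3 mitochondrial members higher and from 2 to 3 peroxisomal members lower. After scaling by the upper quartile 7 mitochondrial members were called higher. Scaling to equal totals left 4 higher and took the mitochondrial median to 0.078, and the fits of all 6 libraries called 0 members and turned that median to -0.52.

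The first step in mitochondria is shared by acyl-CoA dehydrogenases that differ in the chain length they take. Acadm, the medium-chain enzyme (chr3:153922357-153944632), was 153 and 163 FPKM in control 1 and 2 and 222 and 197 FPKM in CIH 1 and 2. Both CIH libraries lay above both controls, and the level rose 1.32-fold (log2 change 0.41, SE 0.0974, limma adjusted p = 0.0296). This call was kept without CIH 2 (adjusted p = 0.048) and lost without control 1, control 2 or CIH 1 (adjusted p = 0.127, 0.0655 and 0.118) and with the replicate block (adjusted p = 0.0674). Acadm was also the member with the widest gap in the replicate 3 pair, 886 FPKM in control 3 and 53.7 FPKM in CIH 3, 16.2-fold lower in CIH. The very-long-chain enzyme Acadvl was 169 and 183 FPKM in control and 216 and 191 FPKM in CIH, and the long-chain enzyme Acadl was 171 and 167 FPKM against 199 and 192 FPKM. The short-chain enzyme Acads was 96.7 and 98.2 FPKM in control and 119 and 108 FPKM in CIH. The CIH libraries lay above the controls in each of these 3 genes, but none was called (log2 changes 0.21, 0.21 and 0.22, limma adjusted p = 0.157, 0.0834 and 0.0857). Between control 3 and CIH 3, Acadvl, Acadl and Acads were 5.16-fold, 2.31-fold and 3.93-fold lower in CIH 3. Of the exon bases of Acadvl, 42.9% are shared with Dvl2 on the other strand, and the sources used here do not say whether strand was used in counting.

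The trifunctional protein, which carries out the remaining steps on long chains at the inner membrane, has an α subunit made by Hadha and a β subunit made by Hadhb. The genes sit head to head on chromosome 5, Hadha on the minus strand (chr5:30118304-30155162) and Hadhb on the plus strand (chr5:30155248-30184593). The 85 bases between their annotated starts, chr5:30155163-30155247, are shown because the pair shares this stretch while Hadha was called in replicates 1 and 2 and Hadhb was not. They are 69.4% G or C and hold 9 CG dinucleotides. The sequence is that of the GRCm38.p6 plus strand from RefSeq.
Hadha to Hadhb: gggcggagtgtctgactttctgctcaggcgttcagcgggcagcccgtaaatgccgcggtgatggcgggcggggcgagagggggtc

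Hadha was 80.9 and 83.0 FPKM in control 1 and 2 and 112 and 104 FPKM in CIH 1 and 2. Hadha was higher in each CIH library than in either control, and it rose 1.31-fold (log2 change 0.39, SE 0.0751, limma adjusted p = 0.0167). The call was lost without control 1 or CIH 1 (adjusted p = 0.0681 and 0.0843). Hadhb was 82.6 and 72.9 FPKM in control and 78.7 and 73.0 FPKM in CIH, so that its groups overlapped, and it was not called (log2 change -0.03, adjusted p = 0.803). The ratio of Hadha to Hadhb, chosen after the values were seen, was 0.980 in control 1, 1.14 in control 2 and 1.42 in both CIH 1 and CIH 2. In the transcript tables the ratio was 0.499 in control 3 and 1.14 in CIH 3, with Hadha at 168 and 42.8 FPKM and Hadhb at 338 and 37.6 FPKM. The ratio was higher in CIH in both kinds of table, with a higher Hadha in replicates 1 and 2 and a wider gap of Hadhb in replicate 3.

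The matrix enzymes that finish the cycle on shorter chains held both the largest rise and the only fall among mitochondrial members. Acaa2, the thiolase that releases acetyl-CoA, was 139 and 136 FPKM in control 1 and 2 and 282 and 243 FPKM in CIH 1 and 2. No control came near either CIH library, and Acaa2 rose 1.90-fold (log2 change 0.92, SE 0.103, limma adjusted p = 0.00411), a call kept when any 1 of the 4 libraries was left out (highest adjusted p = 0.0201) and with the block (0.0101). The replicate 3 pair went the other way for Acaa2, from 137 FPKM in control 3 to 49.98 FPKM in CIH 3, 2.71-fold lower. Echs1, the short-chain enoyl-CoA hydratase, was 32.2 and 31.4 FPKM in control and 26.0 and 23.6 FPKM in CIH. It fell by 0.35 on the log2 scale (SE 0.0749, limma adjusted p = 0.0222), and it was 163 FPKM in control 3 and 29.2 FPKM in CIH 3. The Echs1 call was kept without control 2 (adjusted p = 0.0487) and lost without control 1, CIH 1 or CIH 2 (adjusted p = 0.0695, 0.0554 and 0.1). Hadh, the short-chain hydroxyacyl-CoA dehydrogenase, was 75.7 and 73.4 FPKM in control and 81.4 and 77.2 FPKM in CIH (adjusted p = 0.363). Hsd17b10, a dehydrogenase that also takes branched substrates, was 120 and 132 FPKM against 135 and 114 FPKM (adjusted p = 0.903). Its groups overlapped, and those of Hadh parted by less than the test could call.

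Electrons from the dehydrogenases pass through the flavoprotein subunits Etfa and Etfb and then through Etfdh, which reduces ubiquinone. None of these 3 genes was called. Etfa was 199 and 194 FPKM in control 1 and 2 and 217 and 198 FPKM in CIH 1 and 2 (log2 change 0.08, adjusted p = 0.523). Etfb was 18.2 and 27.5 FPKM against 33.4 and 26.4 FPKM, with overlapping groups (0.39, adjusted p = 0.207), and it was called without control 2 (0.68, adjusted p = 0.0279). Etfdh was 31.7 and 29.2 FPKM against 36.0 and 34.4 FPKM, with CIH above control but no call (0.20, adjusted p = 0.0834). The 2 subunits join one to one in the protein, yet Etfa stood 6.48 to 10.9 times above Etfb in the gene tables and at 0.617 and 0.649 of it in control 3 and CIH 3. Of the exon bases of Etfb, 58.2% are shared with other genes of the same strand, and the part of this overlap in the Etfb level was not tested. The transcript tables had Etfa, Etfb and Etfdh 4.62-fold, 4.88-fold and 5.59-fold lower in CIH 3.

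Double bonds need helper enzymes. Eci1, the mitochondrial enoyl-CoA isomerase, was 132 and 142 FPKM in control 1 and 2 and 186 and 169 FPKM in CIH 1 and 2. CIH lay above control, and Eci1 rose 1.29-fold (log2 change 0.37, SE 0.0902, limma adjusted p = 0.0312). The Eci1 call was lost when any 1 library was left out (adjusted p = 0.0585 to 0.136) and with the replicate block (0.0725). Decr1, the mitochondrial dienoyl-CoA reductase, was 65.7 and 61.4 FPKM in control and 79.6 and 64.0 FPKM in CIH, and its groups overlapped (adjusted p = 0.321). Acot2, a matrix thioesterase that frees fatty acids from CoA, was 25.04 and 28.7 FPKM in control and 23.7 and 25.9 FPKM in CIH (adjusted p = 0.394). Set against control 3, Eci1 and Decr1 were 2.62-fold and 4.61-fold lower in CIH 3, and Acot2 was 19.3 FPKM in control 3 and 15.8 FPKM in CIH 3. Acot1, its cytosolic near-identical copy, was at most 0.107 FPKM in the gene tables and was 1.03 FPKM in control 3 and 2.82 FPKM in CIH 3. Reads of the copies can be split between them, so both values are uncertain.

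Acad11, Ech1 and Eci2 act in both organelles. Acad11, a dehydrogenase of long chains and hydroxylated acids, was 8.65 and 7.54 FPKM in control 1 and 2 and 5.97 and 5.88 FPKM in CIH 1 and 2. The CIH libraries lay below the controls, and Acad11 fell by 0.39 on the log2 scale (SE 0.093, limma adjusted p = 0.0288). Its call was kept without control 2 (adjusted p = 0.0251) and lost without control 1, CIH 1 or CIH 2 (adjusted p = 0.0903, 0.121 and 0.116). Ech1, a dienoyl-CoA isomerase, was 133 FPKM in both controls and 161 and 137 FPKM in CIH (adjusted p = 0.263). Eci2, an enoyl-CoA isomerase, was 41.3 and 40.03 FPKM against 38.5 and 34.4 FPKM (adjusted p = 0.184). Neither was called, and in the replicate 3 pair Acad11, Ech1 and Eci2 were 4.20-fold, 3.52-fold and 3.20-fold lower in CIH 3.

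Among peroxisomal enzymes, 5 of 6 tested members fell (83.3%) and 0 rose, beside 20.9% of all genes called lower and 18.2% called higher. The count of those that rose was also 0 at an unadjusted limma p under 0.05, and the median log2 change was -0.35. Acox3, an oxidase that opens the cycle on branched chains (chr5:35583040-35615352), was 10.0 and 9.99 FPKM in control 1 and 2 and 3.36 and 3.35 FPKM in CIH 1 and 2. Both pairs of replicates lay almost on top of each other, and Acox3 fell 2.53-fold (log2 change -1.34, SE 0.0749, limma adjusted p = 0.00094), a call kept in each fit with 1 library left out (highest adjusted p = 0.0125). Phyh, which hydroxylates phytanoyl-CoA so that this branched fatty acid can be degraded (chr2:4919019-4938730), was 13.1 and 10.9 FPKM in control and 6.14 and 5.12 FPKM in CIH. It fell 1.96-fold (log2 change -0.97, SE 0.129, limma adjusted p = 0.00628), and its call too was kept without any 1 library (highest adjusted p = 0.033). With the replicate block the adjusted p-values of Acox3 and Phyh were 0.00383 and 0.00604. The same genes differed less in the replicate 3 pair, Acox3 at 39.0 FPKM in control 3 and 26.8 FPKM in CIH 3 and Phyh at 22.1 and 13.6 FPKM. Of the 6 Acox3 transcript entries of at least 1 FPKM, 3 were lower and 3 higher in CIH 3.

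The thiolases and the reductase fell by smaller steps. Scp2, a locus for a sterol carrier protein and a thiolase of branched chains (chr4:108043839-108144998), was 143 and 141 FPKM in control 1 and 2 and 119 and 108 FPKM in CIH 1 and 2, and it fell 1.25-fold (log2 change -0.33, SE 0.0845, limma adjusted p = 0.036). Acaa1a, a thiolase of straight chains, was 55.8 and 59.3 FPKM in control and 47.3 and 40.9 FPKM in CIH, and it fell 1.30-fold (-0.38, SE 0.0945, limma adjusted p = 0.0324). Decr2, the peroxisomal dienoyl-CoA reductase, was 23.2 and 21.2 FPKM in control and 17.9 and 17.5 FPKM in CIH, and it fell 1.24-fold (-0.31, SE 0.0753, limma adjusted p = 0.0303). In all 3 genes both CIH libraries lay below both controls. The Scp2 call was lost in each fit with 1 library left out (adjusted p = 0.0633 to 0.134). Acaa1a was kept without CIH 1 alone (0.0456) and lost without control 1, control 2 or CIH 2 (0.0581, 0.0897 and 0.114), and Decr2 was kept without control 2 alone (0.0346) and lost without control 1, CIH 1 or CIH 2 (0.105, 0.116 and 0.124). With the replicate block none of the 3 was called (adjusted p = 0.0706, 0.0588 and 0.0543 for Scp2, Acaa1a and Decr2). Acaa1b, a near-identical copy of Acaa1a that shares its function, fell 3.43-fold, from 13.8 and 14.3 FPKM to 3.41 and 3.36 FPKM (limma adjusted p = 0.000609), and how reads were split between the copies is not known.

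In the replicate 3 pair Scp2 was 499 FPKM in control 3 and 56.6 FPKM in CIH 3, 8.68-fold lower and the widest gap among peroxisomal members. Acaa1a was 87.5 and 34.4 FPKM there, and Decr2 was nearly level at 27.6 and 26.2 FPKM. Hsd17b4, the bifunctional enzyme that hydrates and oxidises branched and very long chains, was the only tested peroxisomal enzyme that was not called, at 85.7 and 85.9 FPKM in control 1 and 2 and 94.6 and 88.5 FPKM in CIH 1 and 2 (log2 change 0.09, adjusted p = 0.356). It was 91.0 FPKM in control 3 and 21.1 FPKM in CIH 3. Ehhadh, the other bifunctional enzyme, which acts on straight chains, was 0.274 and 0.276 FPKM in control 1 and 2 and 0.0898 and 0.110 FPKM in CIH 1 and 2, too low to enter the test. Its level was 0.443 FPKM in control 3 and 0.0233 FPKM in CIH 3, so that in both kinds of table Hsd17b4 was the more abundant bifunctional enzyme by far.

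Acyl-CoA enters peroxisomes through half-transporters of the ABC family, and here the single rise among peroxisomal members was found. Abcd2, which carries very long and polyunsaturated chains (chr15:91145871-91191799), was 3.65 and 3.36 FPKM in control 1 and 2 and 6.99 and 6.91 FPKM in CIH 1 and 2. It rose 1.77-fold (log2 change 0.82, SE 0.0807, limma adjusted p = 0.00306), and the call was kept without any 1 library (highest adjusted p = 0.0273) and with the block (0.00924). The transcript tables had Abcd2 the other way, at 7.14 FPKM in control 3 and 3.05 FPKM in CIH 3. Abcd3, the transporter of long and branched chains, was 23.8 and 22.2 FPKM in control and 23.8 and 23.9 FPKM in CIH (log2 change 0.05, adjusted p = 0.586). It was 46.0 FPKM in control 3 and 21.6 FPKM in CIH 3.

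Peroxins build the organelle and import its enzymes. Of the 5 members, 2 fell and 3 were not called, beside 20.9% of all genes called lower, with a median log2 change of -0.17. Pex5, the receptor that brings in matrix proteins (chr6:124396816-124415067), was 62.1 and 68.4 FPKM in control 1 and 2 and 52.5 and 49.6 FPKM in CIH 1 and 2, and it fell 1.27-fold (log2 change -0.35, SE 0.0804, limma adjusted p = 0.0271). Pex11a, which promotes peroxisome division, was 28.4 and 29.8 FPKM against 24.7 and 21.4 FPKM, and it fell 1.26-fold (-0.33, SE 0.0911, limma adjusted p = 0.0427). Both genes had CIH below control without overlap. Pex5 was kept without control 1 alone (0.0372) and lost without control 2, CIH 1 or CIH 2 (0.0878, 0.0839 and 0.114), Pex11a was lost in every fit with 1 library left out (0.0557 to 0.157), and with the replicate block both were lost (0.0588 and 0.0717). Pex14, a docking factor for that receptor, was 18.4 and 19.3 FPKM in control and 21.5 and 20.1 FPKM in CIH (adjusted p = 0.202). Pex3 and Pex19, which insert membrane proteins, were 14.3 and 12.5 FPKM against 12.4 and 12.3 FPKM and 92.6 and 91.5 FPKM against 83.5 and 79.6 FPKM (adjusted p = 0.395 and 0.105). Against control 3, Pex3, Pex5, Pex11a, Pex14 and Pex19 were 3.03-fold, 1.62-fold, 5.02-fold, 2.71-fold and 3.51-fold lower in CIH 3.

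**Figure D2:**
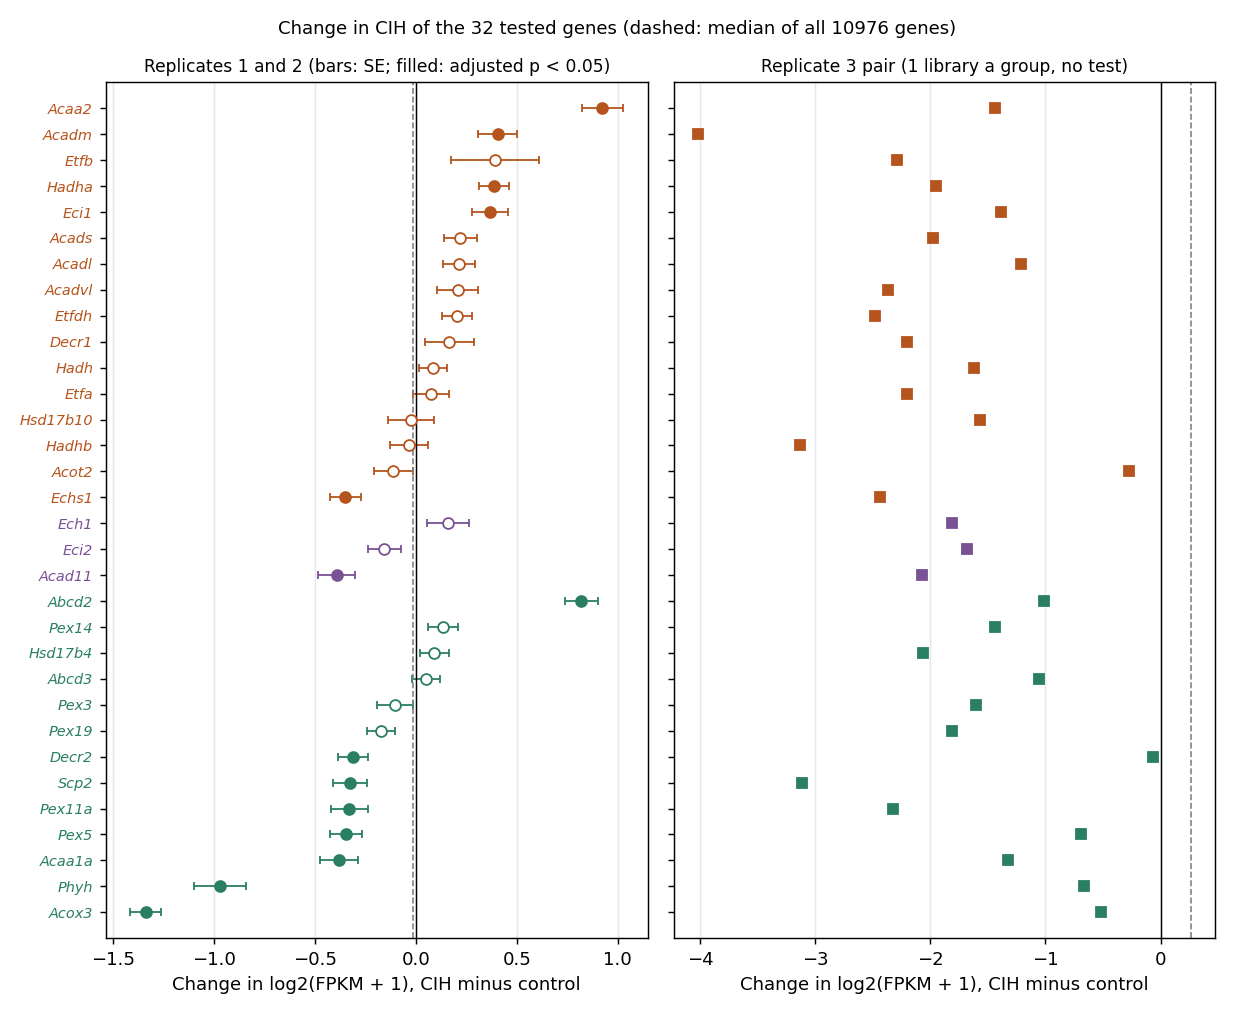
Log2 difference, CIH minus control, of log2(FPKM + 1) for each tested member, by organelle, with replicates 1 and 2 on the left (points with their SE, filled where called) and the replicate 3 pair on the right. In replicates 1 and 2 the mitochondrial members run from -0.35 to 0.92 and the peroxisomal ones from -1.34 to 0.82, and in the replicate 3 pair all 32 lie below 0.

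The bases before the start were read for 29 members with an entry in the RefSeq promoter table (GRCm38.p6). The 250 bases before each start were searched on both strands for AGGTCA, the half-site of nuclear receptors that include the PPARs. It was present in 4 of the 29 members (Acadm, Acadvl, Echs1 and Scp2), beside 14.0% of 32851 promoters of that length. The direct repeat AGGTCANAGGTCA, made of the same 6 letters on either side of any base, was present in 0 of 29 members and in 0.0335% of all promoters. ACGTG, the core of the hypoxia response element, was present in 1 member (Acadvl) and in 16.6% of all promoters. CCAAT, a common promoter box, was present in 12 members and in 33.8% of all promoters. Acadm, Echs1 and Scp2, the called members with the half-site, are shown, with the half-site in capitals (as its reverse complement in Acadm), because they moved in different directions in replicates 1 and 2: Acadm rose, and Echs1 and Scp2 fell. The runs hold no annotated exon and are read 5′ to 3′ on the gene's strand, the minus strand in each case: chr3:153944644-153944893 for Acadm, chr7:140116477-140116671 for Echs1 and chr4:108118548-108118797 for Scp2. The Scp2 run lies before an internal start, inside the annotated gene. A match of 6 letters is a description and not a site of binding.
Acadm: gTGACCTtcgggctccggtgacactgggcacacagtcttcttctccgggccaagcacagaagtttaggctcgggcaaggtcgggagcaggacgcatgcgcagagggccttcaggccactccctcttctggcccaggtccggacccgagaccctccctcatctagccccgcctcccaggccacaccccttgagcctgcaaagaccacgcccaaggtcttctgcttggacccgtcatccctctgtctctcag
Echs1: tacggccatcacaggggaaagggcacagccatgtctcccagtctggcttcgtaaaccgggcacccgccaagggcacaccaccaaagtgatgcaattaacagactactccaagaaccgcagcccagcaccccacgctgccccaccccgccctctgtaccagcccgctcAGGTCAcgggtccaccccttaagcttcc
Scp2: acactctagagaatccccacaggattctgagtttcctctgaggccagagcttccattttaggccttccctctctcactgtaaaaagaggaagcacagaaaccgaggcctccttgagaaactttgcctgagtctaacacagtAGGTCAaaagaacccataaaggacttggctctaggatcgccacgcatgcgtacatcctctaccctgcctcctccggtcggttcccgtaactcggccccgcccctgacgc

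The contrast of the organelles was read within each library as a ratio of geometric mean FPKM, mitochondrial members over tested peroxisomal members. The ratio was 2.82 in control 1, 2.99 in control 2, 4.06 in CIH 1 and 3.93 in CIH 2, so that both CIH libraries lay above both controls. Over peroxisomal enzymes alone the controls stood at 2.24 and 2.40 and the CIH libraries at 4.06 and 4.02. In the transcript tables the order was the opposite, 3.33 in control 3 and 2.13 in CIH 3, or 2.59 and 1.55 over the enzymes alone. The median log2 change of mitochondrial members exceeded that of peroxisomal members by 0.52 in replicates 1 and 2. The same difference was -0.77 in the replicate 3 pair, with mitochondrial members the further below 0. The contrast in replicates 1 and 2 holds for the members and was not seen in other genes of these organelles. There the median log2 change was -0.19 over 17 other mitochondrial acyl-CoA enzymes and -0.17 over 25 other genes of peroxisomal metabolism. Summed over mitochondrial members the level was 1591 and 1623 FPKM in control 1 and 2 and 2046 and 1842 FPKM in CIH 1 and 2, and over tested peroxisomal members it was 574 and 576 FPKM against 514 and 477 FPKM. All 34 members held a nearly constant part of the libraries, between 0.731% and 0.766% of total FPKM in the 4 gene tables.

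**Figure D3:**
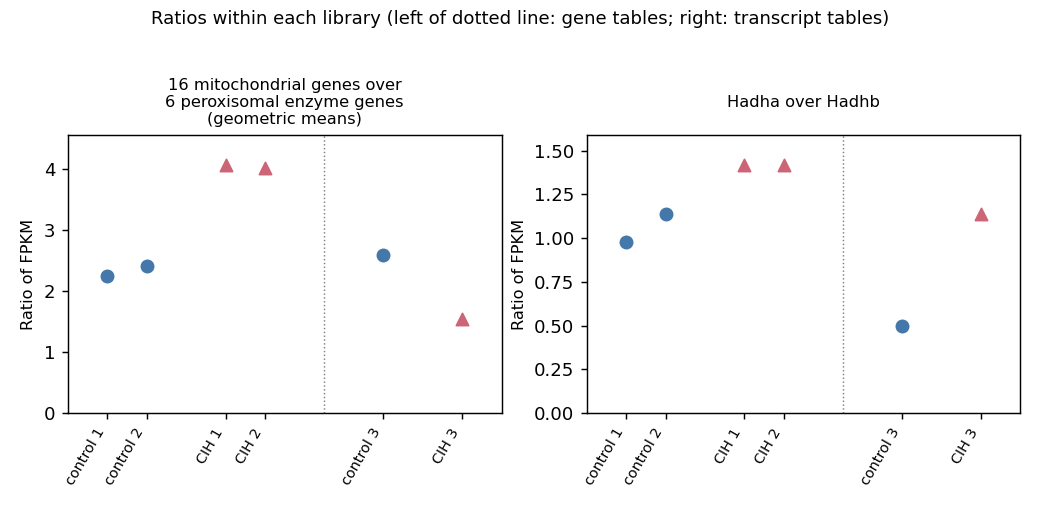
Ratios within each library, with 1 point per library: geometric mean FPKM of the 16 mitochondrial members over the 6 tested peroxisomal enzymes, and Hadha over Hadhb. The first ratio is 2.24 in control 1, 2.40 in control 2, 4.06 in CIH 1, 4.02 in CIH 2, 2.59 in control 3 and 1.55 in CIH 3.

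In the replicate 3 pair all 32 tested members were lower in CIH 3, beside 38.0% of all genes. Of them 27 were at least 2-fold lower, beside 11.8% of all genes, and 0 were at least 2-fold higher, beside 21.8%. The median log2 difference was -2.09 over mitochondrial and -1.32 over peroxisomal members, beside 0.26 over all genes. The 5 members within 2-fold were Decr2, Acot2, Acox3, Phyh and Pex5, and after scaling the tables to equal totals, which moves the median of all genes from 0.26 to 0.83, the differences of Acot2, Acox3 and Decr2 became positive (0.32, 0.09 and 0.54). With equal totals 18 members were at least 2-fold lower, beside 6.11% of all genes, and the peroxisomal median was -0.71. Of 65 transcript entries of members with at least 1 FPKM, 61 were lower in CIH 3, beside 37.6% of 23027 such entries of all genes. The members held 0.635% of total FPKM in control 3 and 0.220% in CIH 3. Mitochondrially encoded genes held 43.7% of total FPKM in control 3 and 22.4% in CIH 3, beside 11.2% to 16.3% in the 4 gene tables, and their part in the result was not tested.

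Cell type markers moved with this difference. The 12 white adipocyte markers summed to 8154 and 8710 FPKM in control 1 and 2, 7383 and 6538 FPKM in CIH 1 and 2, 30387 FPKM in control 3 and 677 FPKM in CIH 3, and 11 of 11 tested were at least 2-fold lower in CIH 3. The 9 preadipocyte or fibroblast markers summed to 195 and 208 FPKM in control 1 and 2, 249 and 254 FPKM in CIH 1 and 2, 456 FPKM in control 3 and 4209 FPKM in CIH 3, and 8 of 8 tested were at least 2-fold higher in CIH 3. By these sums, which the most abundant markers dominate, the label of adipocytes matched 5 libraries. In CIH 3 the fibroblast markers exceeded those of adipocytes. In replicates 1 and 2, limma called 6 of 11 adipocyte markers lower and 0 higher, beside 20.9% of all genes lower and 18.2% higher. Of 8 preadipocyte markers it called 6 higher and 2 lower. Among the adipocyte markers Cfd, Retn and Slc2a4 fell the most, 11.1-fold, 8.00-fold and 3.68-fold (limma adjusted p = 0.000746, 0.000516 and 0.000746). Of the 11 tested, 5 were not called. These were Adipoq, Plin1, Cidec, Fabp4 and Lpl, with log2 changes from -0.20 to 0.14. Of 4 macrophage markers only Cd68 reached 1 FPKM, and Adgre1 was at 0 in all 6 libraries. The 3 hepatocyte markers summed to at most 0.498 FPKM. Of the 4 brown adipocyte markers, Ucp1 was at most 0.119 FPKM and Prdm16 at most 0.0079 FPKM. Cidea fell from 4.61 and 5.31 FPKM to 0.0657 and 0.0626 FPKM in replicates 1 and 2 (limma adjusted p = 0.000392), and Ppargc1a, at 2.70 to 17.7 FPKM over the 6 libraries, was not called. In bulk libraries, fewer cells of a type and less RNA per cell cannot be told apart, and the part of adipocyte content in the members' levels was not tested.

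Whether a member's change differed between the kinds of table was tested as an interaction in limma. Its spread comes from the 4 gene tables alone, on the assumption that libraries of the transcript tables would vary no more. Each of its p-values rests on that assumption, since the transcript tables hold 1 library a group, and the kind of table cannot be told apart from the replicate. The change was more negative in replicate 3 for 27 of 32 members (beside 22.1% of all genes) and more positive for 1, Acox3 (beside 43.9% of all genes). Acadm had the widest gap between its changes, 0.41 in replicates 1 and 2 against -4.02 for replicate 3 (interaction -4.42, adjusted p = 0.000133). Acaa2 and Abcd2, which rose in replicates 1 and 2, had interactions of -2.36 and -1.83 (adjusted p = 0.000485 and 0.000391). The interaction was 0.82 for Acox3 (adjusted p = 0.00308). It was not called for Phyh, Decr2, Pex5 and Acot2 (0.31, 0.24, -0.35 and -0.16, adjusted p = 0.274, 0.163, 0.0846 and 0.434). Phyh, Decr2 and Pex5 fell in replicates 1 and 2. Before any scaling Phyh and Pex5 were lower in CIH 3 as well, 1.59-fold and 1.62-fold. Decr2 was nearly level there (log2 difference -0.07), and the sign of its difference turned with equal totals.

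The carnitine shuttle and the acyl-CoA synthetases feed the mitochondrial cycle. Of 12 tested genes 3 rose, 3 fell and 6 were not called, near the 18.2% and 20.9% of all genes, with a median log2 change of -0.01. Cpt1a, the rate-limiting outer-membrane step of the shuttle, was 4.07 and 4.15 FPKM in control 1 and 2 and 16.3 and 17.7 FPKM in CIH 1 and 2, a 3.51-fold rise (limma adjusted p = 0.00067). It was also higher in the replicate 3 pair, at 14.3 FPKM in control 3 and 33.5 FPKM in CIH 3, where every tested member of the cycle itself was lower. Crat, which makes short-chain acylcarnitines, fell 1.96-fold from 218 and 209 FPKM to 112 and 105 FPKM (limma adjusted p = 0.00207). Acacb, whose product malonyl-CoA inhibits the shuttle, fell 1.87-fold (adjusted p = 0.00418), and the synthetase Acsl3 fell 2.17-fold (adjusted p = 0.00619).

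For other genes of both organelles, the shares called are read against 18.2% of all genes higher and 20.9% lower. The 17 other mitochondrial acyl-CoA enzymes are a mixed list, and many but not all of them act on branched-chain amino acids, propionate and the like. Of these 17, 2 rose (11.8%), 7 fell (41.2%) and 8 were not called (median -0.19). Ivd, the isovaleryl-CoA dehydrogenase of leucine breakdown, fell 1.52-fold (limma adjusted p = 0.00359), and Acad9, a dehydrogenase that also assembles complex I, rose by 0.59 on the log2 scale (adjusted p = 0.00479). Of 25 other genes of peroxisomal metabolism 4 rose (16%), 9 fell (36%) and 12 were not called (median -0.17). Of those that fell, Hacl1 was under 1 FPKM in the 4 gene tables and was tested through its level in the transcript tables. Acox2, the oxidase of bile acid intermediates and branched chains, fell 3.38-fold from 7.71 and 7.89 FPKM to 1.89 and 1.35 FPKM (limma adjusted p = 0.00137). Gnpat, which starts ether lipid synthesis, fell 1.58-fold (adjusted p = 0.00703), and Pxmp2, a peroxisomal membrane channel, fell 1.52-fold (adjusted p = 0.00643). Of 11 other peroxins 0 rose, 3 fell (27.3%, near the share of all genes) and 8 were not called (median -0.15), and of these Pex11g fell 1.95-fold (limma adjusted p = 0.00313). At an unadjusted limma p under 0.05 the count of rising peroxins was also 0.

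**Figure D4:**
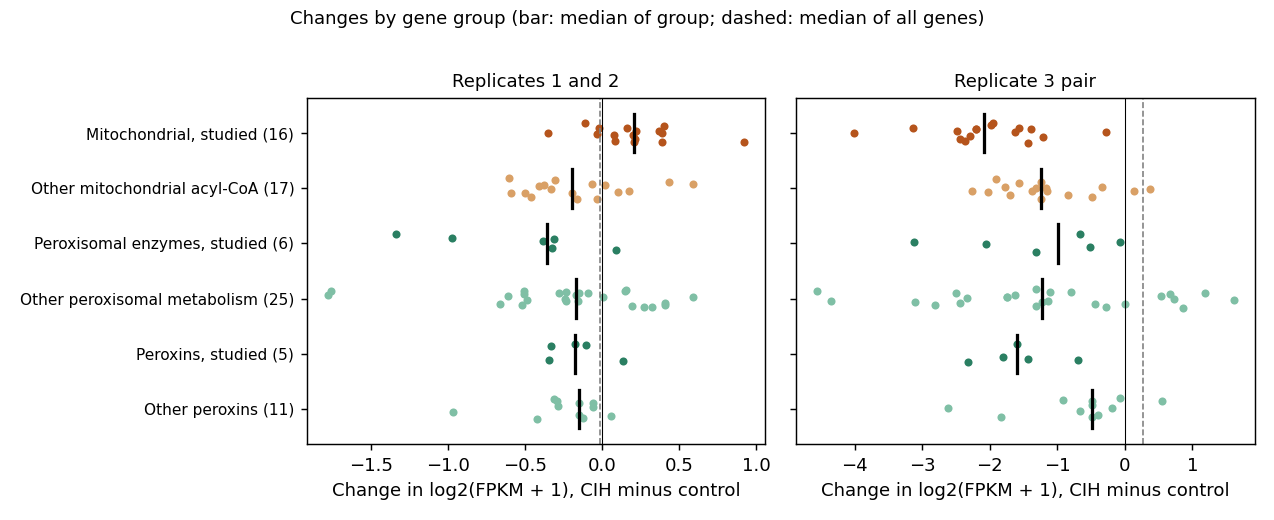
Log2 differences of the genes of each list, CIH minus control on log2(FPKM + 1), with replicates 1 and 2 in the left panel and the replicate 3 pair in the right, with 1 point per tested gene, a bar at each list's median and a dashed line at the median of all genes. The median of mitochondrial members is 0.21 and -2.09, that of peroxisomal enzymes -0.35 and -0.99, and those of the 3 lists of other genes lie below 0 in both panels.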

How the data were processed

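Messenger RNA of 3 control and 3 CIH libraries was deposited by the authors as FPKM values, a unit read from the values because the file headers hold only sample names. Replicates 1 and 2 are gene tables of 54532 IDs. Control 3 and CIH 3 are transcript tables of 50660 entries for 21950 IDs, which were summed per gene. The submitters' processing notes name GRCm38, featureCounts 1.5.0-p3 and DESeq 1.8.3 without their roles, and an aligner was not given in the sources used here. In the gene tables, 98.4% to 98.6% of genes under 50 fragments lay within 0.05 of a whole fragment, which gave the depths.

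Symbols came from GENCODE mouse release M21 (GRCm38), and 21753 of the 21769 common IDs had one. Genes averaging 1 FPKM or more across all 6 libraries entered the test. The test was limma 3.58.1 in R 4.3.3 on log2(FPKM + 1), with a trended empirical Bayes step, for control 1 and 2 against CIH 1 and 2, with Benjamini-Hochberg adjustment over all 10976 genes. Every adjusted p in the text is from limma. The script was tested on simulated data. Tables were made with Python 3.11.15. Same-numbered libraries deviated together over all 6 (correlations 0.529, 0.587 and 0.581), a structure that parts the kinds of table. Within the gene tables the correlation was -0.178, so the pairing is uncertain there. Control 1 and 2 differed beyond sampling noise (mean chi-square 15.2 over 12702 genes, 1 without a difference), as did CIH 1 and 2 (10.3). Each was counted as a replicate, but technical differences alone could give such values, so they do not show separate cultures.

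All 34 members are named. From the other lists the text names called genes with the largest changes, at most 4 a list. It also names Cd68, Adgre1, the brown adipocyte markers, the white adipocyte markers not called, Hacl1 and Fabp3, for checks of cell types and of low values. The white adipocyte markers not called, Hacl1 and Fabp3 were chosen after their values were seen. Some genes of these lists are not reported here. Members and lists were chosen with earlier results of these data known. Alternatives were pseudocount, filter, scaling, replicate block, fits of all 6 libraries, a threshold of 0.01, placement of members in organelles and leaving out each library.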

Additional observations from a re-analysis of the deposited data

How the results depend on the processing

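The direction of the organelle contrast in replicates 1 and 2 (difference of medians 0.52) was kept in each alternative run, and its size was 0.47 with no filter on low values, 0.43 to 0.49 with 1 library left out, 0.48 or 0.45 with the members of both organelles counted as mitochondrial or peroxisomal, 0.56 with peroxisomal enzymes alone, and 0.10 in both fits of all 6 libraries. In the replicate 3 pair (-0.77) the last 3 placements gave -0.65, -0.57 and -1.10. The mitochondrial median (0.21) was 0.078 after scaling to equal totals, 0.14 to 0.27 with 1 library left out and -0.52 in both fits of all 6 libraries, and the peroxisomal median (-0.31) was -0.43, -0.33 to -0.23 and -0.63. For the replicate 3 pair, equal totals gave -1.47 and -0.71, and the median of ratios -2.38 and -1.61. With the replicate block, limma called 3 members higher and 4 lower (mitochondrial 2 and 1, peroxisomal 1 and 2), beside 1556 and 1776 genes, and 7 of the 14 calls of members were kept. With crossed numbers as a block it called 6 members higher and 9 lower, and 2140 and 2370 genes. At an adjusted p under 0.01 it called 2 members higher and 2 lower (mitochondrial 1 and 0, peroxisomal 1 and 2), and 745 and 995 genes. In the fits of all 6 libraries it called 0 members in either direction, and with the group alone 0 genes either way (490 genes and 1 member at an unadjusted p under 0.05). When the kind of table was a covariate, limma called 20 genes higher and 43 lower (2052 genes and 5 members at an unadjusted p under 0.05). Scaling by the upper quartile gave 8 members higher, 7 of them mitochondrial (Acadl, Acads and Etfdh added, adjusted p = 0.0377, 0.0357 and 0.0479). Scaling to equal totals moved the median of all genes from -0.01 to -0.11, gave 1368 genes higher and 3149 lower, and added Eci2 and Pex19 to the members called lower (adjusted p = 0.0224 and 0.0141). With 1 library left out, 2 to 4 members were called higher and 2 to 5 lower, mitochondrial 1 to 3 and 0 to 1, peroxisomal 1 in each fit and 2 to 3, and 827 to 1736 genes higher and 1038 to 1946 lower, with the fewest genes when CIH 1 was left out. Signs turned in both fits of all 6 libraries, which pool the replicate 3 pair with the others: Acadvl -0.65, Acadl -0.26, Acadm -1.07, Acads -0.51, Hadha -0.39, Hadh -0.48, Etfa -0.68, Etfb -0.50, Etfdh -0.69, Eci1 -0.22, Decr1 -0.62, Ech1 -0.50, Hsd17b4 -0.63, Abcd3 -0.32 and Pex14 -0.39. Of genes that were not called, equal totals gave Hadh -0.041, Etfa -0.053, Hsd17b4 -0.037 and Abcd3 -0.073 in replicates 1 and 2. In the replicate 3 pair equal totals gave Acot2 0.32, Acox3 0.089 and Decr2 0.54. Acox3 and Decr2 were called lower in replicates 1 and 2, and Acot2 was not called. Hsd17b10 was 0.0032 with the median of ratios, 0.012 with the upper quartile, and -0.14 (without CIH 1) to 0.10 (without CIH 2) with 1 library left out. Hadhb was 0.00019 with the upper quartile, and -0.12 (without control 2) to 0.056 (without control 1) with 1 library left out. In the fits of all 6 libraries the change of a gene is its average over the replicates, so the replicate 3 pair enters it. The cause of that pair's difference and of the other turns was not tested. No depth could be recovered for replicate 3, so counting error there cannot be given.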

Other observations

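Of 11 tested regulators of oxidation genes, 1 rose, 5 fell and 5 were not called in replicates 1 and 2 (median log2 change -0.18, limma), beside 18.2% of all genes called higher and 20.9% called lower. Lpin1, a phosphatase that also acts as a coactivator of oxidation genes, fell 2.22-fold from 69.0 and 66.4 FPKM to 29.0 and 31.0 FPKM (adjusted p = 0.00115) and was 113 FPKM in control 3 and 6.88 FPKM in CIH 3. Pparg, the receptor that drives fat cell differentiation, fell 1.88-fold from 104 and 88.0 FPKM to 50.9 and 49.6 FPKM (adjusted p = 0.00383) and was 171 and 23.9 FPKM in control 3 and CIH 3. Ppargc1b, a coactivator of oxidation genes, fell 1.76-fold from 18.6 and 16.2 FPKM to 8.43 and 10.6 FPKM (adjusted p = 0.00982). Sirt3, the mitochondrial deacetylase, fell 1.41-fold from 3.19 and 3.51 FPKM to 2.16 and 2.01 FPKM (adjusted p = 0.0101). Of 12 other known targets of PPARs, a list that shares Cpt1a, Slc25a20 and Acsl1 with the carnitine shuttle and synthetases, 6 rose, 2 fell and 4 were not called (median 0.34). Of those that rose, Fabp3 was at most 0.443 FPKM in the gene tables and was tested only through control 3 (5.61 FPKM), so its call has little behind it. Plin2, which coats lipid droplets, rose 1.97-fold from 338 and 328 FPKM to 691 and 627 FPKM (adjusted p = 0.0042), while Pdk4, the kinase that shuts pyruvate out of oxidation, fell 2.19-fold from 26.8 and 23.7 FPKM to 10.8 and 11.2 FPKM (adjusted p = 0.00164). Ucp3, a mitochondrial carrier of muscle and fat, fell 2.08-fold from 2.33 and 2.18 FPKM to 0.512 and 0.616 FPKM (adjusted p = 0.00115). In the replicate 3 pair Plin2, Pdk4 and Ucp3 were 3.42-fold, 5.09-fold and 4.32-fold lower in CIH 3.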
